A study of Mus musculus with 367 samples.

Results

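The Notch pathway was read in single wound cells through 10 genes chosen by name: the receptors Notch1, Notch2, Notch3 and Notch4, the ligands Jag1 and Jag2, and the targets Hes1, Hey1, Heyl and Nrarp. They are 10 of 50600 gene identifiers in the deposited tables, and each was found there by its symbol. Notch3 was the member that set mural cells apart. It was detected in 52 of 57 mural cells, with capture means of 16.7 to 35.8 FPKM, and in 13 of 198 matrix cells, with capture means of at most 0.446 FPKM. FPKM scales the fragments of a gene by the length of its transcript and by the total of the cell, so levels can be set side by side between genes. Jag1, Hes1 and Heyl were also higher in mural than in matrix cells in 5 of 5 captures, of which Jag1 narrowly passed the test. Notch2 was found in cells of every kind and was detected in 98% of matrix and 96.2% of myeloid cells.

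Notch receptors span the plasma membrane and are bound by Delta-like or Jagged ligands on a neighbouring cell. Binding lets a metalloprotease and then the gamma-secretase complex cut the receptor, and the freed intracellular domain enters the nucleus, where it joins the DNA-binding protein Rbpj and a Mastermind co-activator to turn on genes of the Hes and Hey families and the feedback inhibitor Nrarp. In blood vessel walls Notch3 is known as the receptor of smooth muscle cells and pericytes, which together are called mural cells.

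The cells came from Sm22-Cre;tdTomato mice of mixed background, 3 to 8 weeks old by the labels and within a narrower range of that by the methods, with excisional wounds of 1.5 by 1.5 cm on the back. In these mice Cre is driven by the promoter of Tagln, whose product is SM22, and a cell in which Cre has acted is marked by tdTomato for good, together with its descendants. Wound tissue of 2 to 3 mice per time point was taken at day 12, 15 or 21 after wounding, viable tdTomato-high cells were sorted, and single cells were caught in a C1 microfluidic chip, with 3 captures at day 12 and 2 each at days 15 and 21. All groups are wounded, none is an uninjured control, and it is not stated whether captures came from different mice, so p-values measure the spread between captures, which may be technical.

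Of 367 cells, 292 passed limits on fragments, genes and mitochondrial share, between 27 and 73 per capture. The median estimated depth of a capture was 947131 to 2348279 fragments per cell. Kinds of cell were set by 3 genes outside the Notch list. Matrix cells had at least 1000 FPKM of Col1a1, the main collagen chain of dermal fibroblasts, under 100 FPKM of Rgs5 and under 50 FPKM of Tyrobp. Mural cells had at least 500 FPKM of Rgs5, a signalling regulator of pericytes, and under 50 FPKM of Tyrobp, an adaptor protein of myeloid cells, and myeloid cells had at least 500 FPKM of Tyrobp. This gave 198 matrix, 57 mural and 26 myeloid cells, while 11 kept cells met no rule. Of the mural cells 9, 7 and 14 came from the day 12 captures, 18 and 1 from those of day 15, and 8 and 0 from those of day 21.

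The names of the kinds were checked on markers that the rule did not use. These names rest on RNA alone. The paper counted the RGS5-stained cells of day 12 wounds as fibroblasts and found most of them away from blood vessels. All 8 mural markers, among them Kcnj8, Abcc9 and Higd1b, had their highest level in mural cells, as had all 5 fibroblast markers in matrix cells and all 6 myeloid markers in myeloid cells. The summed mural markers reached 1742 to 2696 FPKM in the captures' mural cells and 1.21 to 62.8 FPKM in their matrix cells. The summed fibroblast markers were at 3505 to 12599 FPKM in mural cells against 16212 to 31968 FPKM in matrix cells, and 19 of the 57 mural cells had at least 1000 FPKM of Col1a1. In myeloid cells these markers were at 67.9 to 10590 FPKM. The 4 myeloid cells of capture 2 of day 15 had a median Col1a1 of 3632 FPKM. Doublets were not called, and their part in those cells was not tested. Of 7 endothelial markers Cdh5, Tek and Cldn5 were at 0 in every mural cell, and the summed list lay between 0.403 and 87.2 FPKM, carried by Emcn in 5 cells and Egfl7 in 2.

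Some cells of a capture nearly repeated each other. Across log2(FPKM + 1) of all genes, 8 pairs of kept cells had a Pearson's r above 0.8, whereas cells of different captures reached 0.754 at most. Of these pairs 6 were in capture 2 of day 12 and 2 in capture 2 of day 21, and 3 of them joined cells of different kinds. How they arose was not tested. The results are given with all kept cells, and those that moved most without the 8 cells that repeat one with more genes are given both ways.

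The stretches upstream of the genes that passed the test between mural and matrix cells, Notch3 and Jag1, are shown beside that of Hey2, a further Notch target that was higher in mural cells in each of the 5 captures compared, without passing. They are from RefSeq on build GRCm38.p6, read on the minus strand, and end before the start of the gene in both RefSeq and GENCODE. They are Notch3 at chr17:32166891-32167140, Jag1 at chr2:137116645-137116770 and Hey2 at chr10:30842802-30843033. Capitals mark TGGGAA on either strand, the core of the Rbpj motif.
Notch3: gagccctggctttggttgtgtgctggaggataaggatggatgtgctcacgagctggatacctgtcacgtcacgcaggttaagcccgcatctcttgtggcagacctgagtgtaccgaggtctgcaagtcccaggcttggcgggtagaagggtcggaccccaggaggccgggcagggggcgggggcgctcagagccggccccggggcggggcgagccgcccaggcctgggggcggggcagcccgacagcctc
Jag1: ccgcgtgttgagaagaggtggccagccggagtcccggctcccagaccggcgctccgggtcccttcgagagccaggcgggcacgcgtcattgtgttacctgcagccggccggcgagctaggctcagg
Hey2: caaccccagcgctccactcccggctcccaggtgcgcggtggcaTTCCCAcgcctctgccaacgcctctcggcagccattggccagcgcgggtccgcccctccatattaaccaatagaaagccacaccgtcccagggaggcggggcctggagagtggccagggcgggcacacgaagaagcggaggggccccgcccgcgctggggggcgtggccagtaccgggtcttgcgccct
Promoters of 300 bases were matched for Hey2 and for 7 of the 10 members, all but Hes1, Hey1 and Heyl. TGGGAA was in none of the 7 and in 25.6% of all 32851 promoters. It was at 207 and 3 bases before the start that the Hey2 window uses, which lies past the end of the stretch shown. The match at 3 bases is outside that stretch and may lie within the gene as annotated. CACGTG, the E-box letters, was in the promoter of Nrarp only among the 7, at 108 bases before its start, against 7.15% of all promoters. These matches are letters in a window and not sites.

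**Figure D1:**
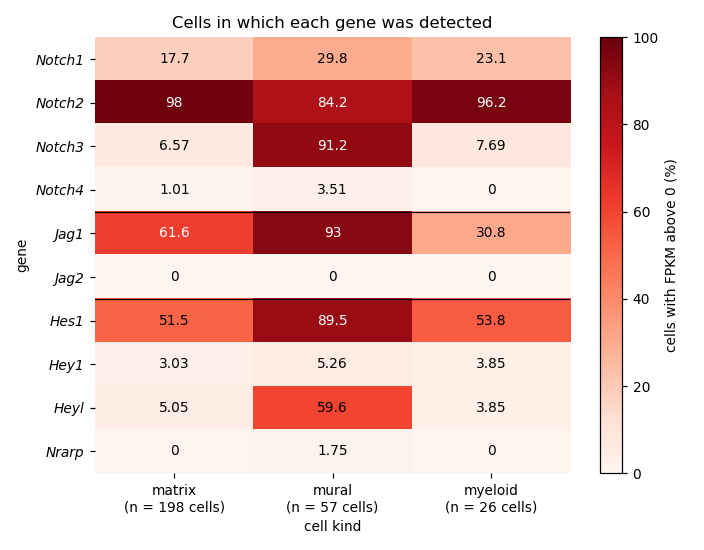
The share of kept cells with a value above 0 is shown as colour and number for each of the 10 genes (rows) in each cell kind (columns), with receptors, ligands and targets separated by lines. Notch3 was detected in 91.2% of mural and 6.57% of matrix cells, Notch2 in most cells of every kind, and Jag2 in none.

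Among the receptors, Notch3 had the clearest pattern. In mural cells its capture means were 35.8, 16.7 and 20.2 FPKM at day 12, 32 FPKM in capture 1 of day 15 and 20.8 FPKM in capture 1 of day 21. In the matrix cells of the same captures they were 0.101, 0.0262, 0.446, 0.0116 and 0.0628 FPKM. Every mural value lay above every matrix value, and the single mural cell of the other day 15 capture, at 30.2 FPKM, lay within the mural range. On the log2(FPKM + 1) scale, which understates the change of low genes, the mural minus matrix difference was 4.49 (SE 0.61), with a limma adjusted p of 0.00562. It was positive in 5 of 5 captures, from 3.87 to 5.06 (SD 0.54), and the exact sign-flip test gave a two-sided p of 0.0625, the smallest that 5 captures allow. The gene passed the filter on low values only through its mural level, and without that filter the adjusted p was 0.0604.

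Detection followed the level. The share of mural cells with Notch3 was 91.2%, with an exact 95% binomial interval of 80.7 to 97.1%, and that of matrix cells was 6.57%, with an interval of 3.54 to 11%. With near-repeating cells counted once the shares were 91.1% (51 of 56) and 6.22% (12 of 193), and the matrix mean of capture 2 of day 12, where both cells with Notch3 were such a pair, was 0.0143 FPKM in place of 0.0262 FPKM. Intervals here cover counting error only. Of the 13 matrix cells with Notch3, 6 held at least 3 estimated fragments and none reached 10 FPKM, while all 52 mural cells with Notch3 held at least 3 fragments and 29 reached 10 FPKM. The median depth was 1228363 fragments in mural and 1453262 in matrix cells, but in captures 1 and 3 of day 12 the mural cells were the deeper ones (2211526 against 2001071 and 1290248 against 1268307). The part of depth in detection was not tested. In myeloid cells, Notch3 was detected in 2 of 26, at 0.07 FPKM at most. Notch3 lies on chromosome 17 at 32120820 to 32166852 of build mm10 and overlaps the antisense gene Gm17276. The counting is not stated to use strand, so reads of that pair cannot be told apart.

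Between days, no difference of Notch3 in mural cells could be shown with these few captures. The mean mural minus matrix difference was 4.35 over the 3 captures of day 12 and 4.69 over the 2 later ones. The difference of -0.35 between them had an exact permutation p of 0.6, two-sided, where 10 assignments allow no p under 0.2. Notch3 was detected in 28 of 30 mural cells at day 12, 17 of 19 at day 15 and 7 of 8 at day 21. The median cell of the day 21 capture was lower, at 2.96 FPKM, against 8.58 to 29.4 FPKM in the other 4 captures, and without its highest cell the mean there was 11.7 FPKM. The mural cells of that capture also had the highest median Col1a1, 6111 FPKM against 288.6 to 1052 FPKM, and its part in the Notch3 values was not tested.

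Notch2 was broad. Its capture means in matrix cells were 17.8, 24.8 and 19.4 FPKM at day 12, 11.8 and 35.9 FPKM at day 15, and 28.9 and 7.17 FPKM at day 21. In mural cells they were 15.8, 7.04, 7.09, 21.5 and 24.4 FPKM, and in the 4 captures with at least 3 myeloid cells they were 34.9, 38.6, 78 and 15.2 FPKM. The ranges of all 3 kinds overlapped. Mural cells were lower than matrix cells in 4 of 5 captures, by a mean of -0.52 (SE 0.59, limma adjusted p = 0.724; -0.85 to -0.23 with a capture left out), and myeloid cells were higher in 4 of 4, by 0.74 (SE 0.99, limma adjusted p = 0.471). In 34 of 57 mural cells Notch3 stood above Notch2 in FPKM, and in 1 of 198 matrix cells.

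Notch1 was sparse, in 17.7% of matrix, 29.8% of mural and 23.1% of myeloid cells. Its mural capture means were 0.967, 6.54, 23.5, 3.84 and 0.119 FPKM against 0.205, 1.05, 0.234, 1.07 and 0.682 FPKM in matrix cells. The ranges overlapped, and mural cells were higher in 4 of 5 captures, by 1.51 (SE 0.77, limma adjusted p = 0.412). The highest mean was 1 cell of capture 3 of day 12 with 328.0 FPKM, without which that capture stood at 0.117 FPKM. With that capture left out, the mean difference was 0.81. Notch4, a receptor best known from endothelium, was detected in 2 matrix and 2 mural cells, of which 1 mural cell had 24.9 FPKM, and in 0 of 26 myeloid cells, where the limit of 3 counts comes to 11.5%.

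**Figure D2:**
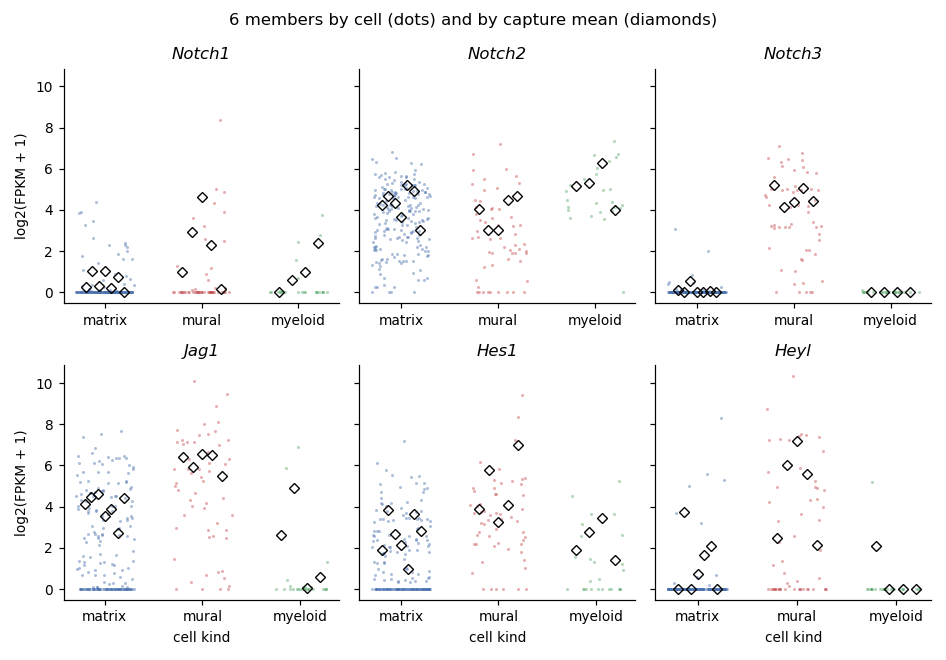
Each dot is 1 kept cell, and each open diamond is the mean of a capture with at least 3 cells of that kind, on the log2(FPKM + 1) scale, for 6 members by cell kind. The mural diamonds of Notch3 (16.7 to 35.8 FPKM) lie above all matrix diamonds (at most 0.446 FPKM), whereas those of Notch2 overlap between kinds.

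Of the ligands, Jag1 was found in all 3 kinds and was highest in mural cells. Its mural capture means were 85.1, 60.6 and 93.6 FPKM at day 12, 90.1 FPKM at day 15 and 43.9 FPKM at day 21. In matrix cells of the same captures they were 16.8, 21.3, 23.3, 10.9 and 5.61 FPKM. Mural and matrix captures did not overlap. The difference on the log2(FPKM + 1) scale was 2.28 (SE 0.48) and positive in 5 of 5 captures, from 1.47 to 2.94. The limma adjusted p was 0.0485, just under the threshold of 0.05. Of 19 alternatives 11 ended that call, with adjusted p-values from 0.00425 to 0.168 over all of them, and leaving out any 1 of the 5 captures ended it (differences of 2.12 to 2.48). Single cells carried much of some means. Without its highest cell, capture 1 of day 12 stood at 36.4 FPKM and the day 21 capture at 28.6 FPKM, and the median cells there were at 15.4 and 6.58 FPKM. Jag1 was detected in 93.0% of mural, 61.6% of matrix and 30.8% of myeloid cells, and 39 of 57 mural cells reached 10 FPKM against 65 of 198 matrix cells. The highest value of all, 1101 FPKM, was the single mural cell of capture 2 of day 15, which was in no test. Jag2, the other Jagged ligand, was at 0 in all 3 kinds, where the limit of 3 counts comes to 1.52% of matrix, 5.26% of mural and 11.5% of myeloid cells.

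Among the targets, Hes1, a transcriptional repressor that also answers to other pathways, had mural capture means of 13.7, 54.3, 8.6, 15.9 and 127.2 FPKM. In matrix cells they were 2.72, 13.3, 5.39, 3.43 and 11.4 FPKM. Mural cells were higher in each capture, but the ranges overlapped, and the difference of 1.97 (SE 0.60) had a limma adjusted p of 0.16. The top means rested on 1 cell each, since without its highest cell capture 2 of day 12 stood at 9.17 FPKM and capture 1 of day 21 at 46.2 FPKM. Hes1 was detected in 89.5% of mural, 51.5% of matrix and 53.8% of myeloid cells.

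Heyl, a Hey-family repressor known as a target of Notch3 in vascular smooth muscle, was at 4.61, 63.9, 144.0, 46.8 and 3.34 FPKM in mural cells and at 0, 12.2, 0, 0.66 and 3.24 FPKM in matrix cells. The captures of days 12 and 15 were apart within each pair, while the day 21 values differed by 0.04 on the log2(FPKM + 1) scale. The mean difference was 3.37 (SE 0.96, limma adjusted p = 0.128). In capture 3 of day 12, 1 cell had 1303 FPKM, without which the mean was 54.9 FPKM, and the matrix value of 12.2 FPKM was 1 cell of 26 with 318.4 FPKM. That matrix cell was a near repeat of a mural cell of its capture that held 183.6 FPKM, and with such cells counted once the matrix mean was 0 and the difference 4.14 (SE 1.00, limma adjusted p = 0.0717). Detection, which no single cell can set, was 59.6% in mural cells (34 of 57, interval 45.8 to 72.4%), 5.05% in matrix cells (10 of 198, interval 2.45 to 9.09%) and 1 of 26 in myeloid cells. With the mean of log2(FPKM + 1) over cells in place of the log2 of the mean, both Hes1 (adjusted p = 0.00986) and Heyl (adjusted p = 0.0111) passed in limma. With that averaging more of all genes tested passed too than the 236 of 13823 in the main fit, as counted under the alternatives below.

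Hey1 was detected in 6 matrix, 3 mural and 1 myeloid cell, and its capture means were set by 1 mural cell of 78.5 FPKM and 1 matrix cell of 145.8 FPKM, both of capture 2 of day 12. These were again the near-repeating pair that held Heyl. The difference was 0.17 (SE 0.55, limma adjusted p = 0.92), or 0.75 with such cells counted once. Nrarp, which limits Notch signalling from within, was detected in 1 mural cell at 6.13 FPKM, with under 3 estimated fragments.

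**Figure D3:**
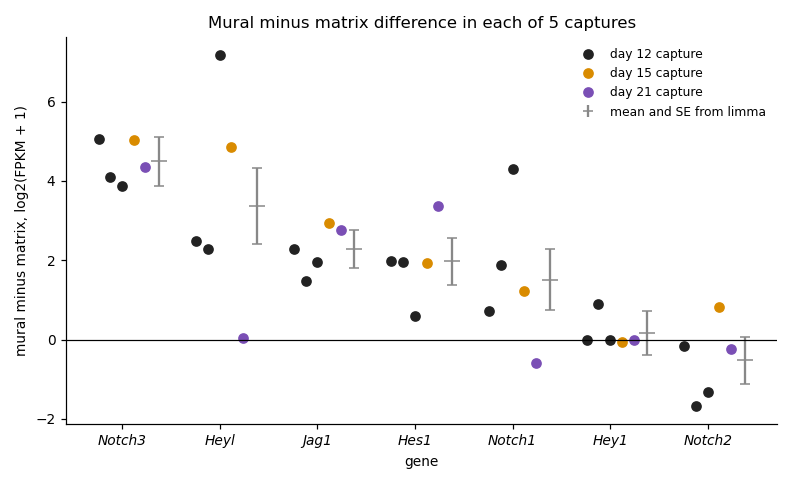
For the 7 members that passed the filter on low values, dots give the mural minus matrix difference on the log2(FPKM + 1) scale in each of 5 captures, coloured by day, and the grey mark gives the limma mean with its SE. Notch3, Heyl, Jag1 and Hes1 were above 0 in 5 of 5 captures, but the Heyl dot of day 21 is at 0.04.

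In all, 7 of the 10 members could be tested between mural and matrix cells, and Notch3 and Jag1 passed, both higher in mural cells. Over all 13823 genes tested, 1.71% passed in either direction and 0.948% as higher in mural cells. Members low in both kinds did not enter, Notch3 and Notch1 reached the filter through their mural level only and Hey1 through the near-repeating pair, so that the 7 are not all members. Between the 26 myeloid and the matrix cells, 4 members could be tested in 4 captures and 0 passed in limma, against 6.59% of 13059 genes. At an unadjusted p under 0.05 they were 0 of 4, against 3589 of the 13059. There the median over all genes was -1.0, so the Notch2 difference of 0.74 and the Hes1 difference of -0.44 (SE 0.98) both lay above it, and those of Jag1 (-1.82, SE 1.07) and Heyl (-1.35, SE 0.80) below. With near-repeating cells counted once that of Heyl was -0.39, above it.

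Within each kind the members fell in different orders on the FPKM scale, as the mean of capture means ± SD. In mural cells (n = 5 captures) Jag1 led at 74.7 ± 21.5, followed by Heyl at 52.5 ± 57.5, Hes1 at 43.9 ± 50, Notch3 at 25.1 ± 8.3, Notch2 at 15.2 ± 8.01, Notch1 at 7.0 ± 9.58 and Hey1 at 2.28 ± 4.99 FPKM. Neighbours in that order overlapped. Within single cells, Jag1 stood above Notch3 in 36 of 57. In matrix cells (n = 7) Notch2 at 20.8 ± 9.91 and Jag1 at 16 ± 6.34 FPKM came first and overlapped, then Hes1 at 6.19 ± 4.55 FPKM, and the other members were under 3 FPKM. In myeloid cells (n = 4) Notch2 led at 41.7 ± 26.3 FPKM. Jag1 at 8.8 ± 14 and Hes1 at 5.04 ± 3.71 FPKM overlapped, and Jag1 rested on 1 cell of 57.4 and 1 of 117.8 FPKM, without which those captures stood at 0.007 and 0 FPKM. The former was in a near-repeating pair with a matrix cell.

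Several members were detected together in single mural cells. Each on its own was found in 53 (Jag1), 52 (Notch3), 51 (Hes1), 48 (Notch2) and 34 (Heyl) of the 57. Of 57 cells, 48 held both Notch3 and Jag1, 47 held Notch3 and Hes1, 46 held Notch3 and Notch2, and 32 held Notch3 and Heyl. All of Notch3, Jag1, Hes1 and Heyl were detected in 26 mural cells and in 0 of 198 matrix cells, where the limit of 3 counts comes to 1.52%. In those matrix cells Notch3 was found in 13 and Heyl in 10. Joint counts like these can arise from the single counts, and association in detection was not tested. A receptor was detected in 56 mural and 195 matrix cells, and a target in 54 mural and 108 matrix cells. Across the 57 mural cells, which come from 6 captures of different depth, Spearman's rho with Notch3 was 0.226 for Hes1 and 0.0208 for Jag1. It was -0.0867 for Heyl, -0.114 for Notch1 and -0.203 for Notch2. These weak values are given as a description. The 19 mural cells with at least 1000 FPKM of Col1a1 had a median of 3.51 FPKM Notch3 and 15.4 FPKM Jag1, against 23.4 and 53.8 FPKM in the other 38. The detection of Notch3 was 84.2% and 94.7% in them. The medians of Notch2 (15.4 against 2.92 FPKM) and Heyl (2.67 against 0.53 FPKM) went the other way, though the mean of Heyl was lower (10.4 against 83.6 FPKM). Hes1 had a lower median (5.87 against 12.5 FPKM) but a higher detection (100% against 84.2%). These cells were pooled over captures, and the part of the capture was not tested.

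**Figure D4:**
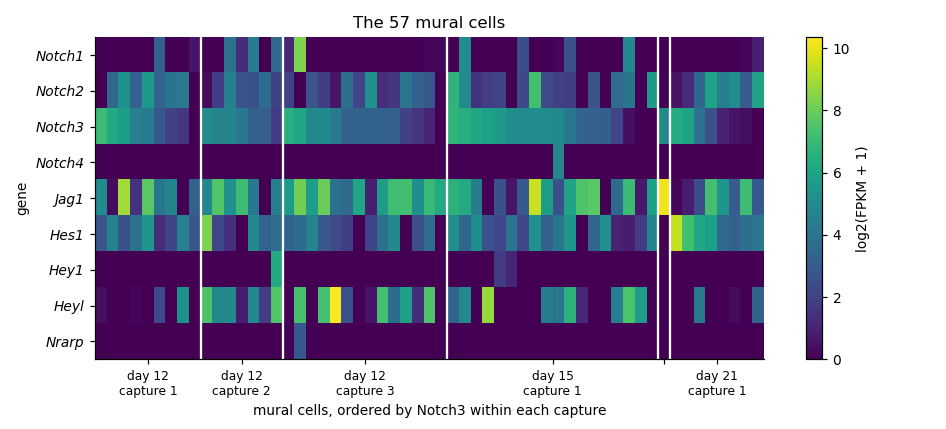
Each column is 1 of the 57 mural cells, ordered by Notch3 within its capture, with white lines between captures (the unlabelled narrow one is the single cell of capture 2 of day 15), and colour gives log2(FPKM + 1) for 9 members. Jag2 was at 0 and is left out. Notch3 and Jag1 were detected together in 48 cells, while Heyl was present in 34 and spread over the Notch3 order.

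In matrix cells the days were compared over all 7 captures. Jag1 was at 16.8, 21.3 and 23.3 FPKM at day 12, 10.9 and 13.6 FPKM at day 15, and 5.61 and 20.5 FPKM at day 21. Both day 15 values lay below those of day 12, and those of day 21 fell on either side. The differences from day 12 were -0.69 (SE 0.70, limma adjusted p = 0.904) at day 15 and -0.84 (SE 0.70, limma adjusted p = 0.832) at day 21. Jag1 was detected in 58 of 74 matrix cells at day 12, 34 of 72 at day 15 and 30 of 52 at day 21.

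Hes1 in matrix cells was at 2.72, 13.3 and 5.39 FPKM at day 12, 3.43 and 0.992 FPKM at day 15, and 11.4 and 6.18 FPKM at day 21. The day 15 captures were below both day 21 captures and overlapped with day 12, and day 21 differed from day 15 by 1.67 (SE 0.99, limma adjusted p = 0.887). Detection was 60.8% at day 12, 29.2% at day 15 and 69.2% at day 21. The matrix cells of day 15 were the shallowest, with medians of 977930 and 976415 fragments against 1214333 to 2306762 in the others, and the part of depth in these shares was not tested. Of the 4 members tested in each of 3 day comparisons, 0 passed in limma. At an unadjusted p under 0.05 they were 0 as well, against 791, 968 and 745 of 13552 genes between days 15 and 12, 21 and 12, and 21 and 15. Over all of these genes, 0% passed between days 15 and 12, 0.00738% between days 21 and 12, and 0% between days 21 and 15. An SE of 0.70 to 1.38 for Jag1, Hes1, Notch2 and Heyl leaves room for changes of several fold.

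**Figure D5:**
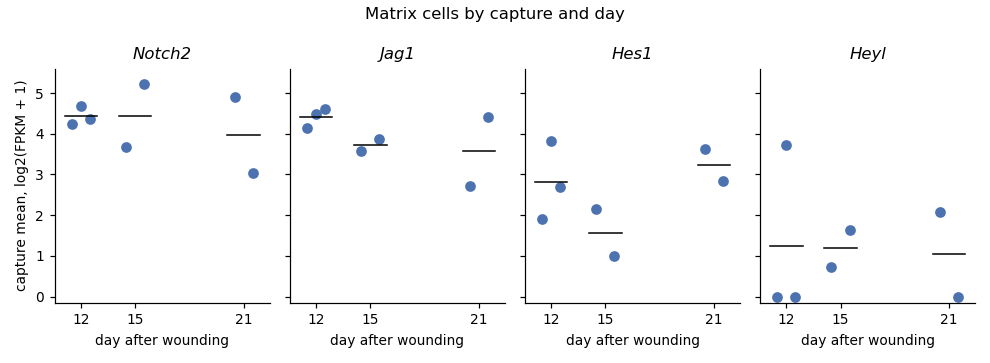
Points are the capture means of matrix cells on the log2(FPKM + 1) scale by day after wounding, with a line at the mean of each day, for the 4 members that could be tested. The day 15 points of Hes1 (3.43 and 0.992 FPKM) lie below those of day 21 (11.4 and 6.18 FPKM), and the captures of days 15 and 21 are far apart for Notch2.

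The rest of the pathway was read through a list of 38 further genes, of which 27 could be tested between mural and matrix cells. In limma 0 passed in either direction, with 1 at an unadjusted p under 0.05 against 1976 of the 13823 genes tested, and their median difference was 0.08. The choice of the genes in this paragraph was made with their values in view. The 1 was Hey2, a Hey-family repressor of vascular cells, which was at 0.683, 2.88, 1.55, 35.8 and 0.247 FPKM in mural cells. In matrix cells of those captures it was at most at 0.0312 FPKM, a difference of 1.91 (SE 0.77, limma adjusted p = 0.29). Like Notch3, it passed the filter on low values only through its mural level. Without 1 mural cell of 525.7 FPKM, the value of 35.8 FPKM was 6.95 FPKM. Hey2 was detected in 10 of 57 mural and 4 of 198 matrix cells, and 1 of these matrix cells, in capture 2 of day 15, had 258.7 FPKM. Rbpj, through which all Notch receptors act, was detected in 71.9% of mural, 73.2% of matrix and 92.3% of myeloid cells, with a mural minus matrix difference of 0.33 (SE 0.59). Adam10, the metalloprotease of the first cut, was in 78.9% and 85.9% of mural and matrix cells. The Delta-like ligand Dll4 and the target Hes5 were at 0 in all 3 kinds, and Dll1 was in 6 matrix cells and in no mural or myeloid cell. Between myeloid and matrix cells 24 genes of the list could be tested and 0 passed, with 5 at an unadjusted p under 0.05 against 3589 of 13059. The day comparisons tested 27 and 0 passed in each, with 0, 0 and 1 at an unadjusted p under 0.05.

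The genes most like Notch3 over 16 means of a kind in a capture were Trpc6, Gja4, Higd1b, Rgs5 and Pcp4l1, with Pearson's r of 0.994, 0.988, 0.986, 0.981 and 0.979 on the log2(FPKM + 1) scale among 9192 genes. Rgs5 set the mural cells, and the 16 points share captures. Notch3 was near 0 in all matrix and myeloid points, so the ranking mostly restates the split of mural from other cells. It does not show likeness within mural cells. Gja4, the gap junction protein connexin 37, was at a mean of 139.4 FPKM in mural and 0 FPKM in matrix captures, and Trpc6, a calcium channel of smooth muscle, was at 91.2 and 0.26 FPKM. Of the members Jag1 ranked 145, Heyl 152 and Hes1 201 in likeness to Notch3, with r of 0.729, 0.723 and 0.68.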

How the data were processed

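Full-length RNA of single cells was measured in 7 C1 captures. The authors aligned the reads with Bowtie 1.0.0 and computed expression with RSEM on build mm10, and the deposited values are FPKM per gene and cell. Counts were not used here. The 50376 identifiers held by GENCODE mouse release M21 took their symbols and positions from it, and 224 had none. Fragments per cell were estimated from the steps between the FPKM values of genes with 1 transcript that is no shorter than 1000 bp, taking fragments as 300 bp long. The estimate was tested on data simulated from these cells under the same lengths and whole counts, so that test does not check those assumptions. Cells under the minimum of reads used in the study (27), over 11000 genes (1) or over 15% mitochondrial FPKM (51) were left out, and a cell could fail more than 1 limit. No pair of cells held identical values, but 10 pairs, each within a capture, had a Pearson's r above 0.8 over log2(FPKM + 1), 8 of them between kept cells. As an alternative chosen after seeing the data, the cell with most genes in each set of such kept cells was used alone (8 cells left out). A gene with a value above 0 was called detected.

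The members and lists were chosen with earlier results of these data known. Levels are means over the cells of a kind in a capture with at least 3 such cells, as log2(FPKM + 1). limma 3.58.1 with a variance trend was fitted on genes whose mean reached 1 FPKM, with the capture as a block between kinds since both means come from it, and Benjamini-Hochberg adjustment over all genes (threshold 0.05). Tests are two-sided. Mural and matrix cells were compared in 5 captures, myeloid and matrix cells in 4, and days in the matrix cells of 7. Notch3 had the exact sign-flip and permutation tests over captures. With 0 of N cells, the limit is 3 counts divided by N. By plan the named genes were the members, genes of the wider list past the threshold and the 5 genes most like Notch3 among those whose mean reached 5 FPKM. No gene of the wider list passed. Hey2, Rbpj, Adam10, Dll1, Dll4 and Hes5 were named outside that plan, with their values in view. Alternatives changed the pseudocount, filter, cells, scaling, averaging, limits of the kinds, minimum of cells, block and variance trend or left out a capture. The software was R 4.3.3, scipy 1.17.1, pandas 2.3.3 and numpy 2.4.6 under Python 3.11.15.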

Additional observations from a re-analysis of the deposited data

Results flagged for a closer look

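Single captures stood apart from the others in 4 of 15 sets of capture differences tested. In these 4 sets nearly all other differences were at or near 0, so that a single cell can set a capture apart. The count of 4 can therefore not be set against a rate by chance. The mural minus matrix difference of Notch4 was 1.25 in capture 1 of day 15, that of Hey1 was 0.89 in capture 2 of day 12 and that of Nrarp was 0.52 in capture 3 of day 12, all on the log2(FPKM + 1) scale and all near 0 in the other captures. The myeloid minus matrix difference of Hey1 was -2.72 in capture 2 of day 12. In the captures that stood apart, single cells carried nearly all of the signal of the gene in a kind. They were a mural cell of 24.9 FPKM for Notch4 and a mural cell of 6.13 FPKM for Nrarp. For Hey1 they were a mural cell of 78.5 FPKM and a matrix cell of 145.8 FPKM, whose values nearly repeated each other. Both Hey1 sets hold that matrix cell.

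The 11 kept cells that met no rule were in no comparison. Notch3 was detected in 36.4% of them (4 cells, 12.3 FPKM at most), Jag1 in 63.6% (7 cells) and Heyl in 45.5% (5 cells). Their summed mural markers were at 81 and 184.5 FPKM in the 2 captures that held 3 or more of these cells, with the lower value first. The summed fibroblast markers were at 675.8 and 18589 FPKM there, and the summed markers of Schwann cells at 61.1 and 1181 FPKM. In the mural, matrix and myeloid cells the Schwann cell markers reached 76 FPKM at most. The part of any of these markers in the Notch values was not tested.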

How the results depend on the processing

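Between mural and matrix cells, 2 members passed. The number was 1, Notch3 alone, with a pseudocount of 0.1, with all cells, with equal sums, without the variance trend, with each capture left out in turn (1 to 1) and with only the mural cells under 1000 FPKM of Col1a1, an alternative chosen after seeing the data. It was 0 without the filter on low values and 4 with the mean of logs. The calls over all genes, 236, were 19 without the filter, 90 without the trend, 102 without capture 1 or 3 of day 12 or capture 1 of day 15, 139 without capture 2 of day 12, 596 with the Col1a1 limit and 657 with the mean of logs. Between myeloid and matrix cells, 0 members passed under 17 alternatives, while the 861 calls over all genes were 31 without the filter, 183 with a pseudocount of 10, 154 with at least 5 cells, 485 with all cells, 1342 with equal sums and 108, 340, 179 and 214 without the capture of day 12, day 15 and captures 1 and 2 of day 21. Equal sums moved the median of all genes there from -1.0 to -1.15. With the mean of logs 28 and 70 genes passed between day 12 and days 15 and 21, and 0 members. Counting near-repeating cells once, an alternative chosen after seeing the data, kept Notch3 and Jag1 as the members called between mural and matrix cells (255 genes called) and 0 elsewhere, and Heyl then fell under the filter between days. Elsewhere the genes called numbered 0 or 1 between days 15 and 12 and between days 21 and 15, and 0 to 5 between days 21 and 12.

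The difference of Notch3 kept its direction under 19 alternatives (1.76 to 6.99). That between day 12 and later captures was 0.32 with the mean of logs against -0.35. Of 427 values of single members under the alternatives, 28 changed sign, all of them where no call was made. Hes1 in myeloid against matrix cells was 0.02 with all cells and -1.18 to 0.05 with a capture left out. In matrix cells, Notch2 between days 15 and 12 was -0.14 with the mean of logs, -0.01 with near-repeating cells counted once and -0.74 to 0.78 with a capture left out. Heyl was 1.38 with a pseudocount of 0.1, 0.09 with the mean of logs and -0.68 to 1.19 with a capture left out. Between days 21 and 12, a capture left out gave -1.39 to 0.48 for Notch2, -1.69 to 0.01 for Jag1, -0.02 to 0.95 for Hes1 and -1.24 to 1.04 for Heyl, which was 0.21 with a pseudocount of 0.1 and 0.23 with the mean of logs. Between days 21 and 15, it gave -1.41 to 0.46 for Notch2, -0.99 to 0.70 for Jag1 and -1.19 to 0.90 for Heyl, which was 0.02 with a pseudocount of 10 and 0.14 with the mean of logs, where Jag1 was 0.40. The cause was not tested.

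No pairing of the days by capture number was seen, as the deviations of same-numbered captures correlated by -0.00685 to 0.025 over 6 pairs. In a day with only 2 captures the deviations mirror each other, so the 6 values are not independent. Whether captures of the same number shared mice or a run was not tested. With the number as a block, 0 members passed between days and Notch2 between days 15 and 12 was -0.02 against 0.02. Without the capture as a block, the same 2 members passed between mural and matrix cells and 0 between myeloid and matrix cells. Members under the filter in both kinds, Notch4, Jag2 and Nrarp, were limited by detection.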
